A study of Mus musculus with 9 samples.

Results

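The genes described here are 8 components of the apoptotic machinery: Fas, Fadd, Ripk1, Casp8, Cycs, Apaf1, Casp9 and Casp6. They were taken by name, as caspases, apoptosome components and death receptor genes, and their transcripts were summed to genes. All 8 passed the filter on low counts, out of 24133 genes tested and 53458 genes in all. Their levels were measured by RNA-seq of conventional type 1 dendritic cells (cDC1) from mouse lymph nodes beside the pancreas, in 9 libraries. cDC1 are the dendritic cells that present captured antigen to cytotoxic T cells. The 3 stages, with 3 libraries each, were nodes of a healthy pancreas (Healthy), nodes draining PanIN, the precursor lesion of pancreatic cancer (PanIN), and nodes draining a tumor (Tumor). KPC, in the series title, is a genetically engineered mouse line that develops pancreatic cancer. The labels give no age or strain of the mice, do not say which mice served as Healthy, and do not say whether a library is 1 mouse or a pool. The p-values thus reflect the spread of these libraries alone, and that spread may be technical.

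Apoptosis is started along a pair of routes that meet in the caspases, proteases that cut many cellular proteins. In the extrinsic route a death receptor such as Fas, bound by its ligand, recruits the adaptor Fadd, which brings in and activates the initiator Casp8, while the kinase Ripk1 sits in related complexes where survival signalling, apoptosis and necroptosis are decided. In the intrinsic route cytochrome c (Cycs) leaves the mitochondria and binds Apaf1, which assembles into the apoptosome and activates the initiator Casp9, and executioner caspases such as Casp6 act below the initiators. Dendritic cells are short lived once mature, and death of antigen-bearing cells is one way in which antigen presentation ends.

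The libraries held 32150281 to 68934430 estimated counts. The 11 cDC1 markers were all detected, with a summed level of 5394 to 13258 CPM in Healthy, 6118 to 11628 CPM in PanIN and 4640 to 8604 CPM in Tumor (CPM are counts scaled to a fixed library total). Sums of marker lists use plain library totals, without the TMM factors applied to the levels of single genes. The Healthy libraries were uneven. Healthy 2 held 57.2 CPM of Ccr7, the homing receptor of mature dendritic cells, against 1265 CPM in Healthy 1 and 419 CPM in Healthy 3. The 7SL RNA gene Rn7s1 stood at 14944 CPM in Healthy 3, against 2617 to 7142 CPM in the other 8 libraries. Markers of other cells were low but uneven. The 10 B cell markers summed to 325 CPM in PanIN 2 and at most 76.2 CPM elsewhere, and the 8 epithelial markers to 109.8 CPM in Tumor 1 and at most 17 CPM elsewhere. The 10 T cell markers summed to 101 to 408 CPM in Healthy, 103 to 373 CPM in PanIN and 161 to 558 CPM in Tumor. The 7 plasma cell markers summed to 109 to 127 CPM in Healthy, 142 to 212 CPM in PanIN and 131 to 315 CPM in Tumor, and the 10 macrophage and monocyte markers to 260.0 to 382 CPM in Healthy, 202 to 321 CPM in PanIN and 166 to 201 CPM in Tumor. On this scale both sums separated all Tumor from all Healthy libraries, in opposite directions. The plasma cell gap was narrow, from 127 CPM in Healthy 2 to 131 CPM in Tumor 3. TMM factors ranged from 0.83 to 1.19, so that gap need not hold with them. Elane, of the neutrophil list, was at 0 in all 9 libraries. The part of these cells in the results was not tested, and in bulk RNA fewer cells of a type and less RNA per cell cannot be told apart.

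Per transcript length Casp6 had the highest mean in each stage, at 34.2 TPM in Healthy, 53.9 TPM in PanIN and 44.7 TPM in Tumor (TPM is a unit that corrects for transcript length). Over the 9 libraries, Casp6 averaged 44.3 TPM, Fas 23 TPM, Casp8 18.4 TPM and Apaf1 16.2 TPM. Ripk1 averaged 12.4 TPM, Cycs 11 TPM and Casp9 8.58 TPM. The order below Casp6 differed between stages, as Casp8 averaged 14.1 TPM and Fas 12 TPM in Healthy. The place of Apaf1 turned on the short transcript Apaf1-204, without which it averaged 9.47 TPM, below Ripk1 and Cycs. The ranges of neighbours in this order overlapped, as with 22.2 to 68.8 TPM for Casp6 and 2.85 to 39.4 TPM for Fas. The exception was the last place. Fadd ranged from 1.84 to 3.35 TPM, below the lowest Casp9 library at 5.09 TPM.

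In the test of stages, none of the 8 genes was called. The edgeR quasi-likelihood test with Benjamini-Hochberg adjustment over all genes called 0 of 8 members in PanIN against Healthy, where it called 0% of all genes, 0 of 8 in Tumor against Healthy, where it called 0.0249%, and 0 of 8 in Tumor against PanIN, where it called 0.0124%. It also called 0 of 8 in the test of any difference among the 3 stages, against 0.0207% of all genes. With so few genes called by edgeR, its count of 0 says little about these 8. DESeq2 also called 0 of 8 in each of the 4 tests. Of the genes to which it gave an adjusted p, it called 0.866% in PanIN against Healthy, 9.42% in Tumor against Healthy, 0.125% in Tumor against PanIN and 6.46% for any difference.

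At an unadjusted edgeR p under 0.05, Fas was higher in Tumor than in Healthy and Cycs was higher in Tumor than in PanIN. That is 1 of 8 members higher in Tumor against Healthy, where 6.82% of all genes were higher and 11% lower, and 1 of 8 higher in Tumor against PanIN, where the shares were 2.02% and 2.52%. In PanIN against Healthy no member reached it, with 4.82% of all genes higher and 5.65% lower. The same pair of genes were the members whose libraries did not overlap between stages. Libraries did not overlap, with Tumor higher, in 9.02% of all genes against Healthy and 8.33% against PanIN, and with Tumor lower in 9.06% and 7.26%. For PanIN against Healthy, 0 of 8 members did not overlap, set beside 7.4% of all genes higher and 4.81% lower. The fold changes were mostly above 0: 7 of 8 in Tumor against Healthy, with a median log2 fold change of 0.22 where the median of all genes was -0.11, and 5 of 8 in PanIN against Healthy, with a median of 0.21 where that of all genes was -0.10. Both comparisons share the Healthy libraries. In Tumor against PanIN 5 of 8 were above 0, with a median of 0.12 and -0.05 for all genes.

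**Figure D1:**
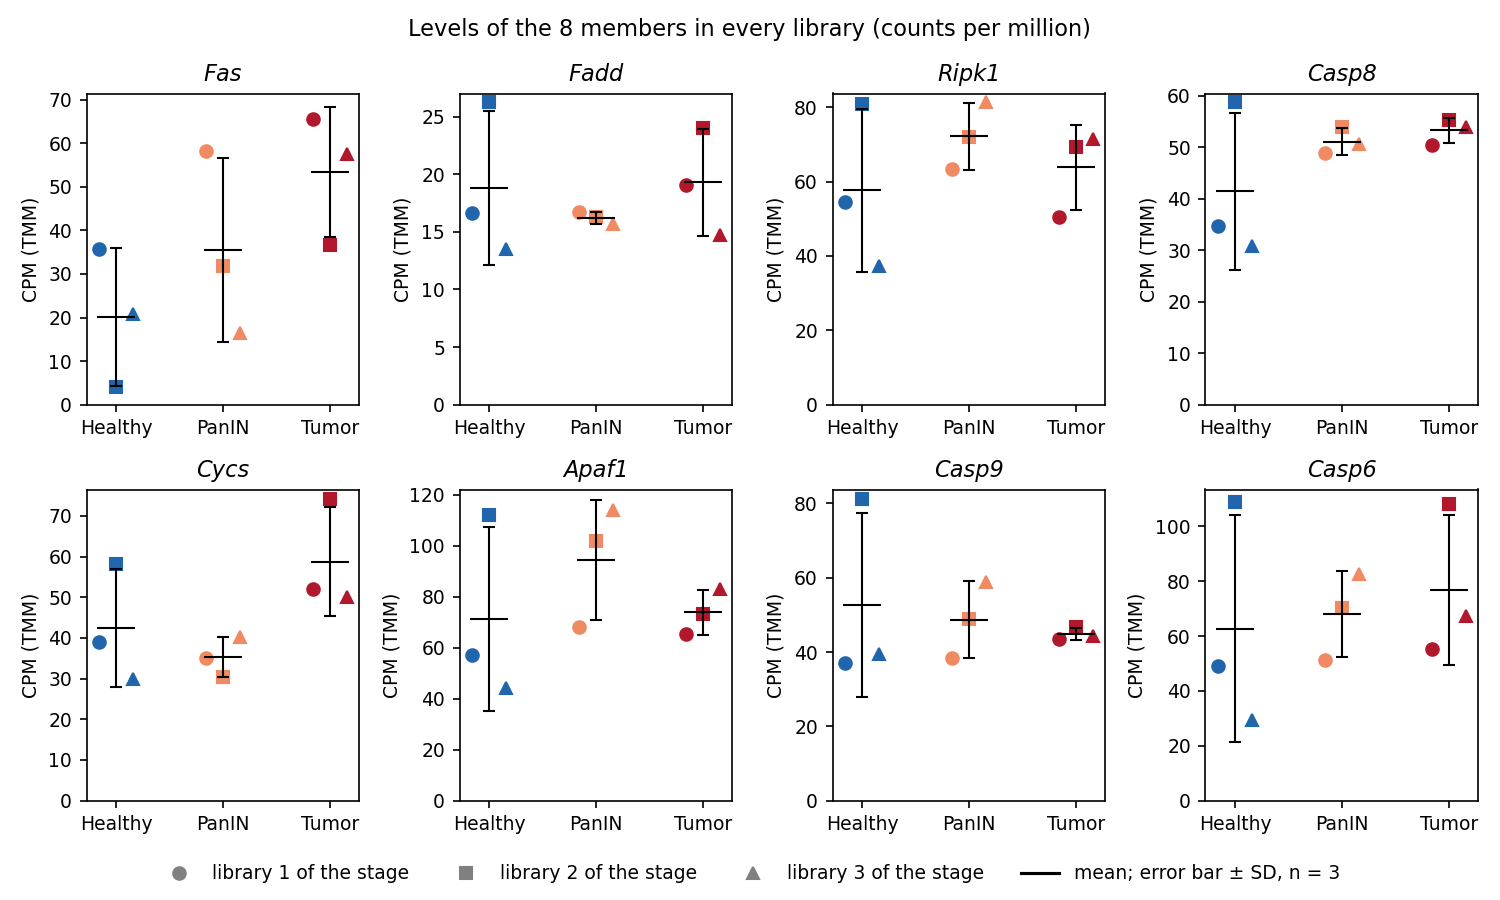
Level of each member in CPM (with TMM factors; vertical axis) by stage (horizontal axis); symbols are single libraries, the bar is the mean and the error bar 1 SD (n = 3). The lowest Tumor library of Fas (36.7 CPM) lies just above the highest Healthy library (35.7 CPM), and Healthy 2 stands at the top of its stage in every panel but that of Fas.

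Fas, the death receptor for Fas ligand on T and NK cells, had the widest range of the 8. It stood at 35.7, 4.01 and 20.7 CPM in Healthy 1, 2 and 3, at 58.1, 31.8 and 16.4 CPM in PanIN 1, 2 and 3, and 65.5, 36.7 and 57.6 CPM in Tumor 1, 2 and 3. The highest library exceeded the lowest 16.3-fold. All Tumor libraries were above all Healthy libraries, with 36.7 CPM in the lowest Tumor and 35.7 CPM in the highest Healthy library, while the PanIN libraries overlapped both other stages. Fas averaged 53.3 ± 14.9 CPM in Tumor and 20.1 ± 15.9 CPM in Healthy (SD, n = 3 each). The log2 fold change was 1.40 (SE 0.62, 95% confidence interval 0.06 to 2.75) and the adjusted p = 0.263 by the edgeR quasi-likelihood test with Benjamini-Hochberg adjustment. The log2 fold change was 0.92 without Healthy 2 and as high as 2.11 with another library left out. It was 0.87 between the pair of libraries that share a title code (Tumor 1 and Healthy 1) and 2.33 among the others. PanIN against Healthy gave 0.81 (SE 0.61) and Tumor against PanIN 0.59 (SE 0.61), both with confidence intervals that include 0.

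The order of the libraries for Fas was close to that of a pair of genes of dendritic cell maturation, Ccr7 and Fscn1, of which Fscn1 bundles actin. Ccr7 stood at 1265, 57.2 and 419 CPM in Healthy 1, 2 and 3, at 1518, 969.9 and 666 CPM in PanIN, and at 2602, 1097 and 1584 CPM in Tumor. For Fas, Ccr7 and Fscn1 alike, Tumor 1, Tumor 3 and PanIN 1 were the highest 3 libraries and Healthy 2 was the lowest. With the mean log2 level of Ccr7 and Fscn1 as a term in the fit, the log2 fold change of Fas was 0.06 for Tumor against Healthy, 0.08 for Tumor against PanIN and -0.03 for PanIN against Healthy. That term comes from the same 9 libraries and runs with Fas, so values near 0 were likely in advance. The part of maturation in the Fas levels was not tested and cannot be told apart from stage. The other 7 members did not have Healthy 2 as their lowest library. Among 9386 protein-coding genes, those with the levels most like Fas over the 9 libraries were Castor2 (Pearson r = 0.996) and Mreg (0.995), and r was 0.988 and 0.985 without Healthy 2. Each r describes these 9 libraries and no more.

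**Figure D2:**
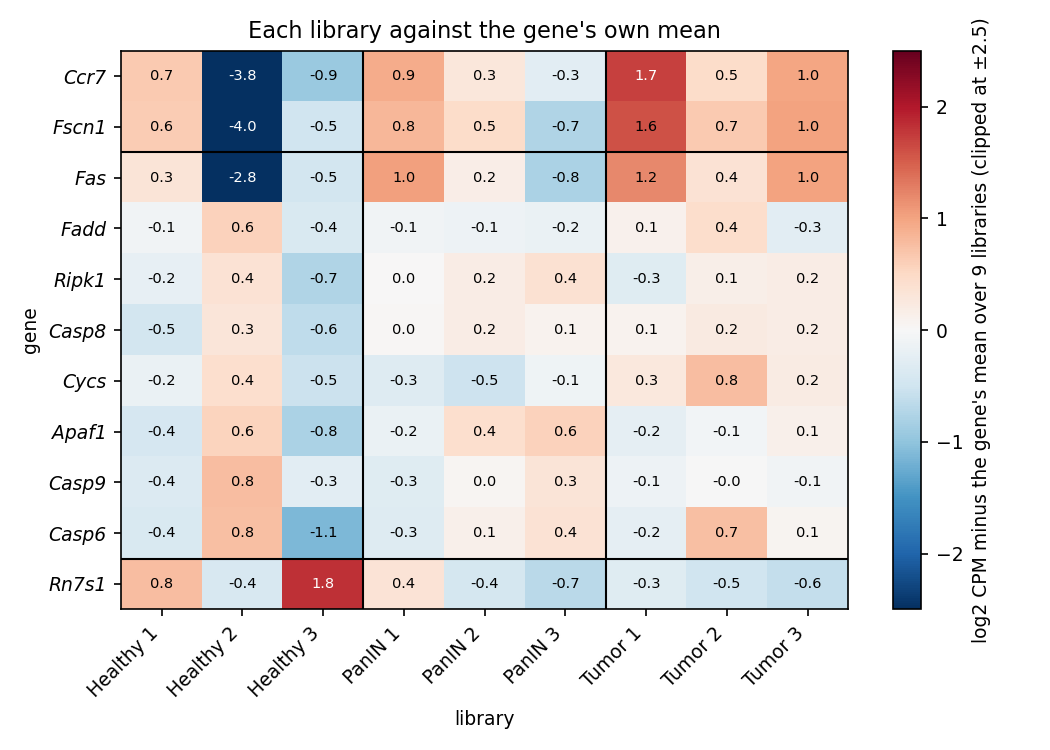
Log2 CPM of each gene in each library minus the gene's mean over the 9 libraries (colour and printed number), for Ccr7 and Fscn1 (top), the 8 members (middle) and Rn7s1 (bottom). The Fas row has the same dark cell in Healthy 2 as Ccr7 and Fscn1, where the other members are above their means, and most members are lowest in Healthy 3, where Rn7s1 is highest.

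The sequence before the Fas start is shown because Fas was the member whose level differed most between libraries. It is the 250 bases upstream of the RefSeq start on GRCm38.p6, chr19:34290409-34290658, plus strand, written 5′ to 3′. Capitals mark the matches to the motifs searched on both strands.
Fas: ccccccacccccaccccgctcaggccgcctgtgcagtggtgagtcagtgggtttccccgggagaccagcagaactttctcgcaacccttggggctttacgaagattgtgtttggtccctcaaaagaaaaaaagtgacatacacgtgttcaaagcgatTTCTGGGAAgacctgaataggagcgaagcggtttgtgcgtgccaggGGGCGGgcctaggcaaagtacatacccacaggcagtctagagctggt
The motifs were the interferon-stimulated response element core GAAANNGAAA, the GAS element TTCNNNGAA, the NF-kB consensus, the CCAAT box and the GC box GGGCGG. The Fas window held 1 GAS match and 1 GC box. Ripk1 was the other member with a GAS match. A GAS match was present in 7.02% and a GC box in 32.7% of the windows of all 32851 promoters of the table. None of the 8 members held the interferon element core (2.98% of all windows) or the NF-kB consensus (7.25%) within these 250 bases. A match is a description of letters, not a site of binding.

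Fadd and Ripk1 act directly below the receptor, and neither differed between stages beyond its spread. Fadd, the adaptor that links Fas to Casp8, stood at 16.6, 26.3 and 13.5 CPM in Healthy, 16.7, 16.3 and 15.7 CPM in PanIN and 19.1, 24 and 14.7 CPM in Tumor. Its PanIN libraries were close together, at 16.2 ± 0.489 CPM (SD, n = 3), and inside the range of both other stages. Tumor against Healthy gave a log2 fold change of 0.04 (95% confidence interval -0.60 to 0.67), so the fold could lie between 0.659 and 1.6. Ripk1 stood at 54.5, 80.8 and 37.4 CPM in Healthy, 63.3, 71.9 and 81.4 CPM in PanIN and 50.6, 69.2 and 71.5 CPM in Tumor. The stages overlapped, and the log2 fold change was 0.33 (SE 0.28) in PanIN against Healthy and 0.15 (SE 0.28) in Tumor against Healthy. The Ripk1 start overlaps the oppositely oriented gene Serpinb6a over 432 bases, and 6.58% of the 31-base words of its main transcript also occur in Serpinb6a transcripts. Fadd overlaps the oppositely oriented antisense gene Faddos over 4195 bases, which held 0 to 43.5 counts per library. Of the words of the main Fadd transcript, 8.73% also occur in other genes. The sources used here do not say whether the quantification used strand.

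Casp8, the protease that death receptor complexes activate and that also restrains necroptosis, had the narrowest range of the 8 over the PanIN and Tumor libraries. It stood at 34.7, 58.8 and 30.8 CPM in Healthy, 48.8, 53.9 and 50.6 CPM in PanIN and 50.5, 55.3 and 54 CPM in Tumor. PanIN and Tumor libraries all lay between 48.8 and 55.3 CPM, and 2 of 3 Healthy libraries were below them while Healthy 2 was above. Casp8 averaged 53.3 ± 2.44 CPM in Tumor and 41.4 ± 15.2 CPM in Healthy (SD, n = 3 each). The log2 fold change was 0.36 (SE 0.25, 95% confidence interval -0.17 to 0.90; adjusted p = 0.486, edgeR quasi-likelihood test with Benjamini-Hochberg adjustment). This call turned on Healthy 2. Without that library the edgeR log2 fold change was 0.70 with an adjusted p = 0.0317, a setting that called 8.51% of 25589 genes. Casp8 was the only member called there. The limma-voom fit with sample weights, which counts deviating libraries less, also called Casp8 in Tumor against Healthy (0.60, adjusted p = 0.0326, where it called 8.23% of all genes) and in PanIN against Healthy (0.58, adjusted p = 0.0165, where it called 14.1%). That fit called Apaf1 as well in PanIN against Healthy (0.77, adjusted p = 0.0152), and it called Casp8, Apaf1 and Cycs in the test of any difference, with 13.5% of all genes called. Across every alternative Casp8 was above 0 in Tumor against Healthy, from 0.22 without Healthy 3 to 0.82 with the term for Ccr7 and Fscn1. Of the 31-base words of the main Casp8 transcript, 8.96% also occur in other genes, and 8.27% occur in Gm20257. Casp8 also overlaps the gene Gm37760 on the same strand over 3841 bases.

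**Figure D3:**
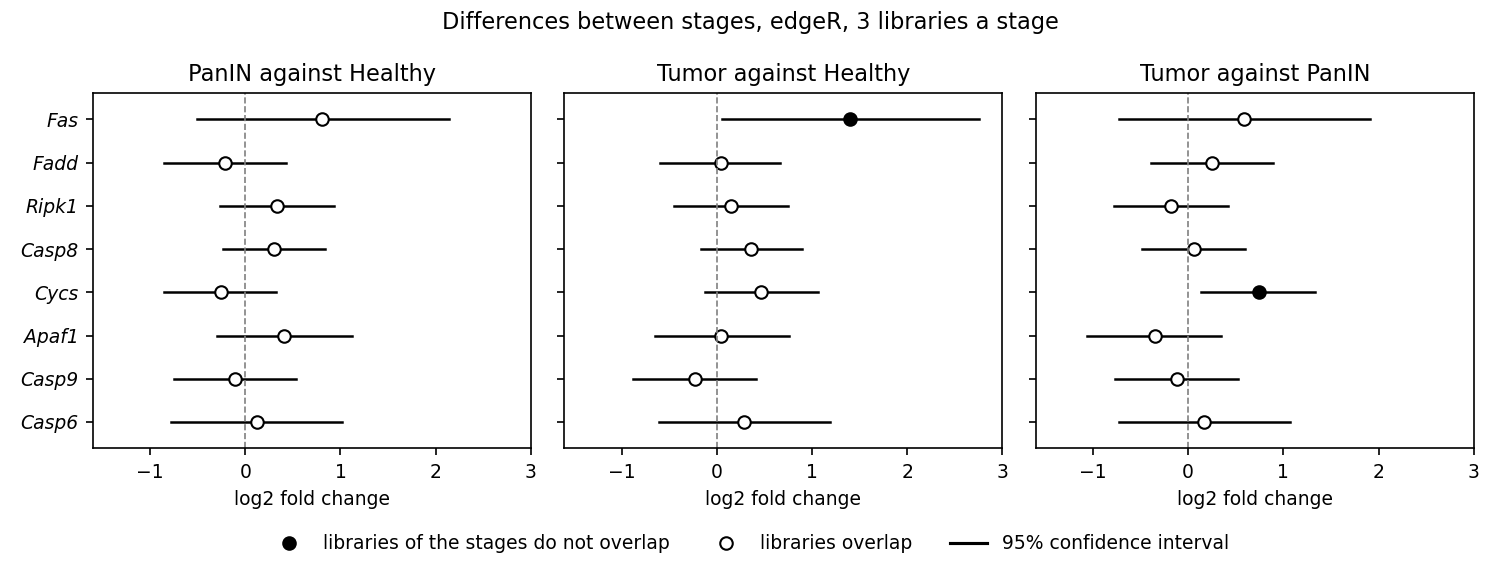
Log2 fold change of each member (points) with its 95% confidence interval (lines) from edgeR in the 3 comparisons, with filled points where the libraries of the stages do not overlap. Only Fas in Tumor against Healthy (1.40) and Cycs in Tumor against PanIN (0.74) have intervals that leave out 0.

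Cycs, the respiratory chain protein that triggers the apoptosome once in the cytosol, was higher in Tumor than in PanIN in every library. It stood at 52, 74.2 and 50.1 CPM in Tumor and at 35.1, 30.5 and 40.3 CPM in PanIN. The Healthy libraries, at 39.1, 58.3 and 29.9 CPM, overlapped both. Cycs averaged 58.8 ± 13.4 CPM in Tumor and 35.3 ± 4.87 CPM in PanIN (SD, n = 3 each). The log2 fold change was 0.74 (SE 0.27, 95% confidence interval 0.14 to 1.33) and the adjusted p = 1 by the edgeR quasi-likelihood test with Benjamini-Hochberg adjustment. It was 0.53 to 0.84 with 1 library left out, 0.57 within the shared title code and 0.80 among the other libraries. On the TPM scale the Cycs libraries of Tumor and PanIN overlapped, at 11.3, 15.4 and 12.7 TPM in Tumor and 9.31, 10 and 11.8 TPM in PanIN.

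Cycs shares sequence with other genes, and how many of its counts came from shared reads was not measured. Of the 31-base words of its main transcript, 32% also occur in transcripts of other genes, and 28.6% occur in Gm10053, a shorter copy. Of the words of Gm10053, 96.6% occur in Cycs. Gm10053 was listed at 68.3 to 109 CPM in Tumor and 54.3 to 77.8 CPM in PanIN, more than Cycs in each library. Cycs and Gm10053 together stood at 135, 183 and 118 CPM in Tumor and at 99.8, 84.8 and 118 CPM in PanIN. The lowest Tumor library and the highest PanIN library then differed by less than 1 CPM. The 250 bases upstream of the RefSeq start of Cycs, chr6:50566570-50566819 on GRCm38.p6, minus strand, are shown as those of the other member whose libraries did not overlap.
Cycs: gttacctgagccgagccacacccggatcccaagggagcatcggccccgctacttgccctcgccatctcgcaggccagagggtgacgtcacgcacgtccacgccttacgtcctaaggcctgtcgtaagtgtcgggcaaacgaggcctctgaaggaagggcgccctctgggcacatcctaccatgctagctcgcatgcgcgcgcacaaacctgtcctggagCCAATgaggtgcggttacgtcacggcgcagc
The window held 1 CCAAT box, which 33.8% of all promoter windows hold, and none of the other motifs searched. Casp8 was the other member with a CCAAT box, and the GC box was found in the other 6 members.

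Apaf1, the scaffold of the apoptosome, and Casp9, the caspase that it activates, overlapped between all stages. Apaf1 stood at 57.1, 112 and 44.3 CPM in Healthy, 68.2, 102 and 114 CPM in PanIN and 65.4, 73.1 and 83.1 CPM in Tumor. Healthy 2 lay between the upper PanIN libraries, and the other Healthy libraries were the lowest of all 9. The log2 fold change was 0.41 (95% confidence interval -0.30 to 1.12) in PanIN against Healthy and 0.05 (-0.65 to 0.76) in Tumor against Healthy. Casp9 stood at 37.1, 81.1 and 39.6 CPM in Healthy, 38.4, 48.9 and 58.9 CPM in PanIN and 43.5, 46.7 and 44.3 CPM in Tumor. Healthy held both its highest and its lowest library. Its log2 fold change was -0.11 for PanIN and -0.23 for Tumor, each against Healthy (SE 0.30 each), and both were above 0 without Healthy 2, at 0.35 and 0.23.

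Casp6, an executioner caspase that cuts nuclear lamins, ranged 3.7-fold over the libraries. It stood at 49.2, 109 and 29.5 CPM in Healthy, 51.2, 70.1 and 82.7 CPM in PanIN and 55.3, 108 and 67.2 CPM in Tumor. Its highest and its lowest library were both Healthy, and the stages overlapped. Casp6 averaged 76.7 ± 27.4 CPM in Tumor and 62.6 ± 41.4 CPM in Healthy (SD, n = 3 each). The log2 fold change of 0.29 had a 95% confidence interval of -0.61 to 1.19, which allows a fold between 0.656 and 2.29.

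The Healthy stage was the most spread for each of the 8 genes. The SD of log2 CPM was widest in Healthy in 8 of 8 members, as in 64.4% of all genes. For the members the median SD reached 0.59 for Healthy, 0.25 for PanIN and 0.29 for Tumor, set beside 0.71, 0.40 and 0.40 over all genes. Healthy 3 was the lowest library for 6 of 8 members, all but Fas and Casp9, and for 21.2% of all genes. Healthy 2 was the highest library for 4 of 8, Fadd, Casp8, Casp9 and Casp6, and for 19.6% of all genes. Healthy 2 was the library with the least Ccr7 and Fscn1, and Healthy 3 the one with the most Rn7s1; their part in these levels was not tested.

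The nearest genes in level over the 9 libraries differed from member to member. They were Mrpl30 for Fadd (Pearson r = 0.979), Dhx16 for Ripk1 (0.994), Sept2 for Casp8 (0.977) and C1qbp for Cycs (0.971). Rubcnl was nearest to Apaf1 (0.994), Scap to Casp9 (0.981) and Prim1 to Casp6 (0.988). With 9386 genes searched over 9 libraries, a high r for the best gene is a description only.

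The tables also divide each gene between its annotated transcripts, by a model that assigns shared reads. All 32 member transcripts in the tables were examined, and 28 passed the filter. One transcript held most counts of each gene in nearly every library, from 45.9% to 84.8% of Casp8 for Casp8-202 up to 97% to 99.1% of Cycs for Cycs-202. For Fas, 2 of 5 annotated transcripts were in the tables, and Fas-201 held 84.5% to 96.6% of its counts. Some coding transcripts were listed at 0 in several libraries and at much higher counts in others. Casp8-203 was at 0 in 5 libraries, 2 of them Tumor, with 642 counts in PanIN 2 and 789 counts in Healthy 2. Ripk1-204 was at 0 in all Tumor libraries and held 241 counts in PanIN 2 and 305 and 189.7 counts in Healthy 2 and Healthy 3. These on-off patterns ran across stages, and an exact 0 in such a table can be an outcome of the model.

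**Figure D4:**
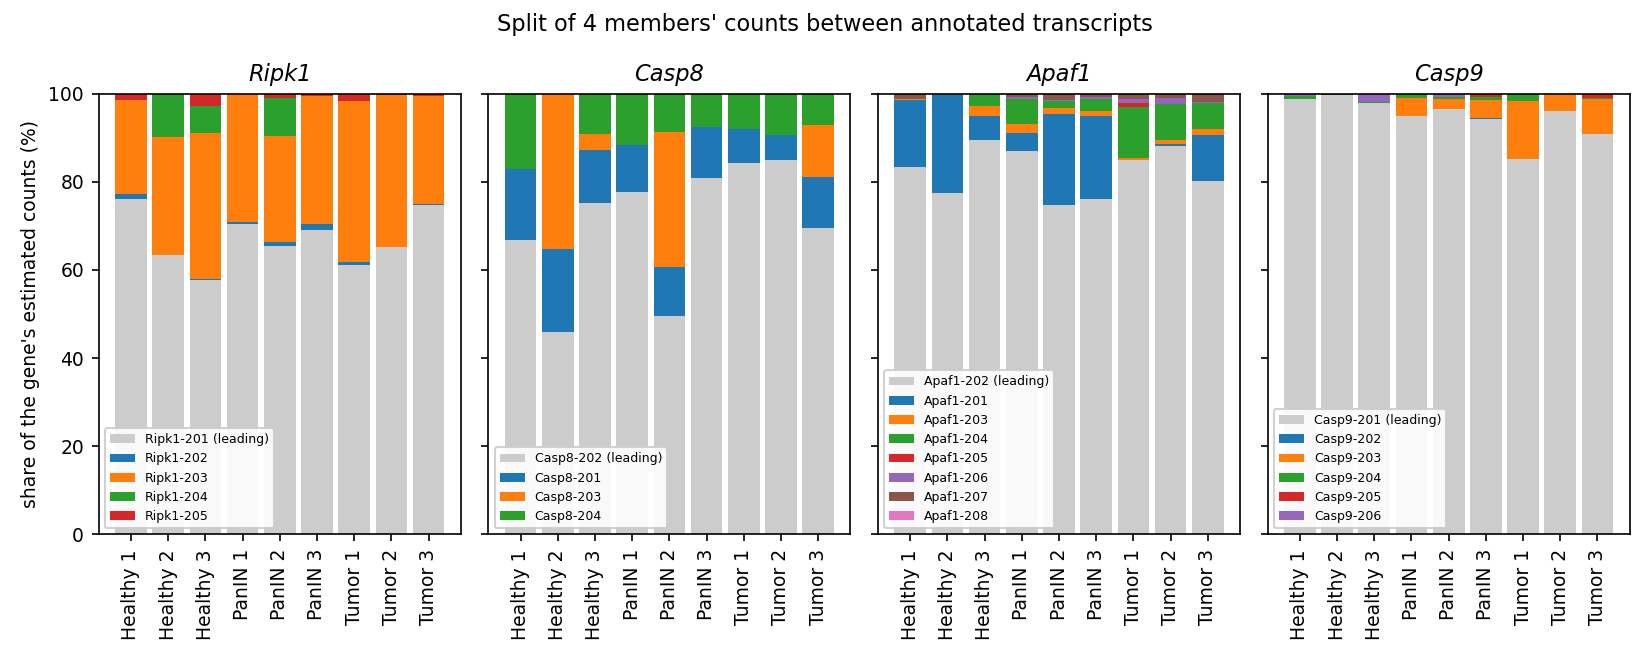
Share of each gene's estimated counts (percent, vertical axis) assigned to each annotated transcript in every library (horizontal axis) for Ripk1, Casp8, Apaf1 and Casp9. Casp9-203 is absent from the Healthy libraries and holds 3.99% to 13.1% of Casp9 counts in Tumor, and Apaf1-204 holds 5.75% to 11.5% of Apaf1 counts in Tumor.

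One member transcript was called. Casp9-203, a processed transcript of 854 bases with no annotated protein, held 219, 78.3 and 128 estimated counts in Tumor and 59.5, 42 and 103 counts in PanIN, and was listed at 0 in all 3 Healthy libraries. With an assumed 3 counts over the 3 Healthy libraries together, the fold would be 179.7 in Tumor and 81.5 in PanIN. These folds are not a lower limit on the difference, because the 0 values can be an outcome of the model that assigns shared reads. With 0 counts in Healthy, Casp9-203 passed the filter on low counts only through Tumor and PanIN. In an edgeR quasi-likelihood fit over 66598 transcripts with Benjamini-Hochberg adjustment, added after seeing the transcript counts, it had an adjusted p = 0.0451 in Tumor against Healthy. That made 1 of 28 member transcripts called, where 0.189% of all transcripts were called. Leaving out any 1 of the 9 libraries ended the call, with adjusted p from 0.0624 to 0.138 in the same test. In PanIN against Healthy its adjusted p was 0.195 by the same test (0 of 28 member transcripts called, where 0.0045% of all transcripts were called). DESeq2 gave it an adjusted p of 4.36e-10 in Tumor against Healthy and 2.44e-07 in PanIN against Healthy. The share of all transcripts that DESeq2 called is not given here, so these values stand without a background. Over genes, DESeq2 called 9.42% in Tumor against Healthy, where edgeR called 0.0249%. In Tumor against PanIN edgeR called 0 of 28, where it called 0.036% of all transcripts. At an unadjusted p under 0.05, 1 of 28 was higher and 0 lower in PanIN against Healthy (Casp9-203), where 4.72% of all transcripts were higher and 2.1% lower. In Tumor against Healthy 2 of 28 were higher (Casp8-202 and Casp9-203) and 1 of 28 lower (Ripk1-204), where the shares were 5.74% and 7.15%. In Tumor against PanIN 1 of 28 was higher and 0 lower (Cycs-202), where the shares were 1.89% and 4.15%.

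Casp9-203 lies inside the last exon of the main transcript. All 3 of its exons fall within exon 9 of Casp9-201, which spans 2382 bases at chr4:141813595-141815976 of GRCm38, plus strand. The gene Cela2a, a pancreatic elastase of acinar cells, runs on the opposite strand, and its last exon of 94 bases, at chr4:141814962-141815055, lies inside the first exon of Casp9-203. Cela2a itself held 0 counts in the 3 Healthy libraries, 17.1, 15.2 and 0 counts in PanIN, and 4.02, 0 and 2 counts in Tumor. Ctrc, another acinar protease gene on the opposite strand, has 1 transcript with the same exon, Ctrc-205, which held 0, 0 and 31.9 counts in Healthy, 0, 16.2 and 0 counts in PanIN and 0 counts in the 3 Tumor libraries. All Ctrc transcripts together held 84, 15 and 322 counts in Healthy, 64, 48.8 and 73.2 counts in PanIN and 124, 111 and 133 counts in Tumor. The 9 acinar markers summed to 0.152 to 2.39 CPM in Healthy, 3.06 to 12.6 CPM in PanIN and 0.658 to 1.11 CPM in Tumor. The part of reads from Cela2a or Ctrc in Casp9-203 was not tested.

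**Figure D5:**
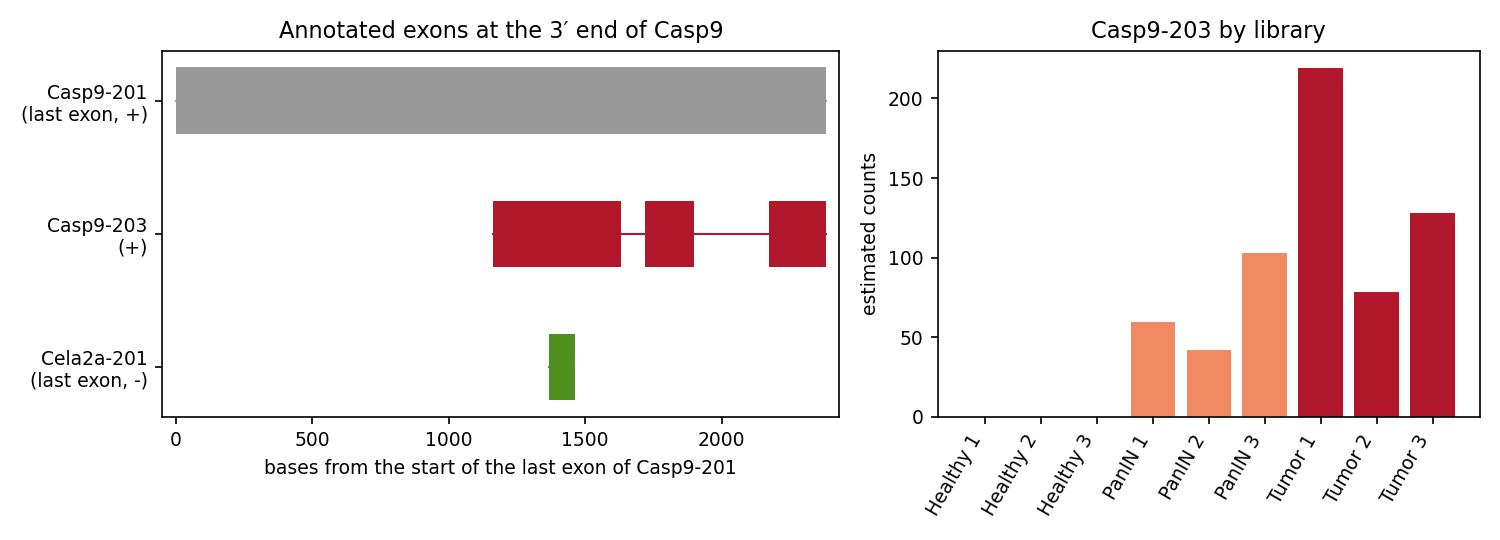
Left, annotated exons (boxes) of Casp9-201, Casp9-203 and the oppositely oriented Cela2a-201 by distance in bases from the start of the last exon of Casp9-201. Right, estimated counts of Casp9-203 in each library, at 0 in the 3 Healthy libraries and between 42 and 219 in the other 6.

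A similar short transcript moved the length-corrected level of Apaf1. Apaf1-204, 511 bases in 2 exons inside exon 27 of the main transcript Apaf1-202, held 289, 253 and 172 counts in Tumor, 148, 64.8 and 138 counts in PanIN and 0, 0 and 88.5 counts in Healthy. It was not called (Tumor against Healthy adjusted p = 0.388, edgeR quasi-likelihood test with Benjamini-Hochberg adjustment over all transcripts). Because it is short, its counts weigh heavily per length. Summed over all transcripts, Apaf1 stood at 19.4, 18.9 and 21.8 TPM in Tumor, 18.3, 19.4 and 24.3 TPM in PanIN and 5.69, 9.92 and 7.74 TPM in Healthy, with no overlap of either stage with Healthy. Without Apaf1-204 the sums were 5.69, 7.57 and 10.7 TPM in Tumor, 9.08, 15 and 16.1 TPM in PanIN and 5.69, 9.92 and 5.54 TPM in Healthy, and the stages overlapped. On the TPM scale the members that did not overlap were thus Apaf1 in PanIN against Healthy (1 of 8, where 14.4% of all genes were higher without overlap), Apaf1 and Fas in Tumor against Healthy (2 of 8, 7.94%) and none in Tumor against PanIN (0 of 8, 2.36%). No TPM fit called Apaf1.

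The other genes of the pathway, taken from 6 lists, gave 0 called members in each comparison by edgeR. At an unadjusted p under 0.05, the list of adaptors, ubiquitin editors and inhibitors of the death receptor complexes held 5 of 21 genes higher and 0 lower in Tumor against Healthy, where 6.82% of all genes were higher and 11% lower. Its median log2 fold change was 0.41, and that of all genes -0.11. It held 4 of 21 higher and 0 lower in PanIN against Healthy, where 4.82% of all genes were higher and 5.65% lower, with a median of 0.36 and -0.10 for all genes. In Tumor against PanIN none of its 21 genes passed, with a median of 0.08 and -0.05 for all genes. Ikbkb, Sharpin and Cflar passed in both Tumor and PanIN against Healthy, Birc2 and Tnip1 passed in Tumor, and Rnf31 passed in PanIN. Birc2, Tnip1 and Rnf31 are named after their values were seen. Its named genes included Ikbkb, a kinase that activates NF-kB, at 244, 169 and 249 CPM in Tumor and 144, 108 and 86.6 CPM in Healthy (log2 fold change 0.97, SE 0.25). Sharpin, a part of the linear ubiquitin ligase, stood at 104, 99.1 and 113 CPM in Tumor and 66.5, 65.9 and 44.8 CPM in Healthy (0.83, SE 0.23). Cflar, the catalytically dead relative of Casp8 that blocks its activation, stood at 249, 228 and 169 CPM in PanIN and 169.8, 65.6 and 98.9 CPM in Healthy (0.95, SE 0.34). Ikbkb and Sharpin did not overlap between the stages given, and Cflar PanIN 3 lay just below Healthy 1.

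Of 7 other caspases, 5 were tested. Casp4, an inflammatory caspase that senses cytosolic lipopolysaccharide, stood at 29.7, 21.1 and 27.6 CPM in Tumor and 11.3, 9.63 and 6.93 CPM in Healthy. The stages did not overlap, and its log2 fold change was 1.49 (SE 0.27, adjusted p = 0.124 by the edgeR quasi-likelihood test with Benjamini-Hochberg adjustment). In PanIN it stood at 20.9, 17.7 and 17.4 CPM (1.01 against Healthy, SE 0.27). Of 12 mitochondrial death factors and apoptosome regulators, 1 passed an unadjusted p of 0.05 in Tumor against Healthy and in PanIN against Healthy. In both it was Htra2, a mitochondrial protease released with cytochrome c, at 163, 107 and 164 CPM in Tumor, against 95.1, 49 and 53.3 CPM in Healthy (1.14, SE 0.29). Over all genes 6.82% were higher and 11% lower in Tumor, and 4.82% and 5.65% in PanIN, each against Healthy.

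None of the 10 death receptors and ligands passed in either comparison with Healthy. In Tumor against PanIN 1 was lower, Tnfsf15, a TNF family ligand named after its values were seen. There, 2.02% of all genes were higher and 2.52% lower. Tnfrsf10b, a receptor for the ligand TRAIL, stood at 10.1, 9.15 and 13.4 CPM in Tumor and 10.2, 3.49 and 4.85 CPM in Healthy. Of 14 caspase substrates and execution factors, Lmna, a nuclear lamin, was lower at an unadjusted p under 0.05 in PanIN (9.05, 7.3 and 11.6 CPM) against Healthy (11.9, 18.6 and 18.4 CPM; log2 fold change -0.81, SE 0.30). Acin1, a chromatin condensation factor cut by caspases, was higher in PanIN at the same threshold (0.60, SE 0.26). Xkr8, a scramblase activated by caspases, was the 1 gene of this list past the threshold in Tumor against Healthy, lower in Tumor, and is named after its values were seen. The list thus held 1 higher and 1 lower of 14 in PanIN, and 0 higher and 1 lower in Tumor. Over all genes 4.82% were higher and 5.65% lower in PanIN, and 6.82% and 11% in Tumor, each against Healthy. Of 5 necroptosis genes, 4 were tested. Zbp1, a sensor of Z-form nucleic acids and an interferon target, stood at 48.8, 60.5 and 88.5 CPM in PanIN and 23.5, 29.7 and 14.5 CPM in Healthy (1.55, SE 0.29, adjusted p = 0.238 by the edgeR quasi-likelihood test with Benjamini-Hochberg adjustment). In Tumor it stood at 45.5, 50.1 and 42.9 CPM, also above all Healthy libraries (1.04 against Healthy, SE 0.29). Without TMM factors, the 18 type I interferon response genes, Zbp1 among them, summed to 694 to 1060 CPM in Healthy. They summed to 1294 to 2144 CPM in PanIN and 933 to 1092 CPM in Tumor. The gap from 1060 CPM in Healthy 2 to 1294 CPM in PanIN 1 need not hold with those factors. The part of interferon in the levels of these genes was not tested.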

How the data were processed

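RNA-seq of cDC1 gave 9 libraries, 3 per stage. Per the submitters' processing notes the reads were quantified with Salmon on mm10; its version was not given in the sources used here, and the deposited tables are named after sailfish. Per the labels' protocols the library kit was directional. The authors deposited estimated counts per transcript, not normalized, and TPM per transcript, which sum to 1000000 per library. Of 136288 transcripts, 136176 matched the GENCODE M21 annotation of GRCm38, and the rest were left out. Summing over transcripts gave 53458 genes, whose counts were rounded; 24133 passed filterByExpr (minimum count 10, minimum total 15). Depths were 32150281 to 68934430 counts, and the common biological coefficient of variation over all genes tested was 56.5%. The precision of each gene is given by its own SE.

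Tests used 1 edgeR 4.0.16 quasi-likelihood fit (R 4.3.3) over all 9 libraries with stage as the only term, TMM factors (0.83 to 1.19) and Benjamini-Hochberg adjustment over all genes, threshold 0.05. Levels of single genes are CPM with TMM factors, and sums of marker lists are CPM of plain library totals. An exact permutation of 3 against 3 cannot give p below 0.1. Alternatives were DESeq2 1.42.0, RLE factors, no filter, limma-voom with sample weights and limma-trend with pseudocounts of 1 and 0.1 TPM (limma 3.58.1), counts rebuilt from TPM, terms for the shared title code or for Ccr7 and Fscn1, the 6 libraries compared alone, and each library left out. The transcript fits were added after seeing the data. The edgeR gene fit was tested on simulated data. It recovered 10.4% of 2-fold changes in PanIN against Healthy, 3% in Tumor against Healthy and 11.9% in Tumor against PanIN. For 4-fold changes it recovered 67.2%, 65.7% and 67.2%.

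All 8 members are named; per pathway list and comparison the rule took up to 2 genes with the smallest edgeR p and a mean log2 CPM of at least 1, of which a part is printed and some genes are not reported here. Likeness used genes with a mean log2 CPM of at least 3. Members and lists were chosen with earlier results of these data known. Promoters are from RefSeq (GRCm38.p6) and matched all 8 members. Tables used Python 3.11.15 and pandas 2.3.3, figures matplotlib 3.10.9.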

Additional observations from a re-analysis of the deposited data

How the results depend on the processing

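The main limits are 3 libraries per stage and the spread of the Healthy libraries; the intervals of the members include 0 except for Fas in Tumor against Healthy and Cycs in Tumor against PanIN. Of 24 fold changes, 9 kept their sign under all 19 alternatives and 15 changed it at least once, none of these above 0.81 in size; the cause was not tested. DESeq2 called 196, 1607, 30 and 1043 genes in PanIN against Healthy, Tumor against Healthy, Tumor against PanIN and any difference, where edgeR called 0, 6, 3 and 5. No filter gave 123, 1041, 33 and 855. Limma-voom with sample weights gave 3409, 1986 and 3248 (first, second and any difference) with 2, 1 and 3 members. The term for Ccr7 and Fscn1 gave 2, 1551 and 700, and log2(TPM + 1) gave 4 in PanIN against Healthy and 8 for any difference. Log2(TPM + 0.1) gave 3 in PanIN against Healthy, the title code term 1 in Tumor against PanIN and 3 for any difference, and the 6 libraries alone 0 in Tumor against PanIN. With 1 library left out the genes called were 0 to 6, 2 to 2177, 1 to 7 and 0 to 1360, each highest without Healthy 2 except Tumor against PanIN, highest without Tumor 3, and the members called in Tumor against Healthy were 0 to 1. On TPM 1, 2 and 0 members did not overlap. For Casp9-203, leaving out 1 library gave adjusted p of 0.0624 to 0.138 (edgeR) in Tumor against Healthy, and DESeq2 gave 2.44e-07 in PanIN against Healthy.

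Log2 fold changes of opposite sign to the edgeR value, by setting, were these. In PanIN against Healthy, limma-voom gave Fas -0.08 and Casp9 0.36, log2(TPM + 1) gave Fadd 0.11, Cycs 0.14 and Casp9 0.53, and log2(TPM + 0.1) gave 0.15, 0.16 and 0.59. Counts rebuilt from TPM gave Casp9 0.28, and the term for Ccr7 and Fscn1 gave Fas -0.03, Fadd 0.08, Cycs 0.03 and Casp9 0.38. In Tumor against Healthy, limma-voom gave Casp9 0.22, log2(TPM + 1) gave Ripk1 -0.01 and Casp9 0.38, log2(TPM + 0.1) gave -0.01 and 0.43, counts rebuilt from TPM gave -0.01 and 0.42, and the term for Ccr7 and Fscn1 gave Casp9 0.50. In Tumor against PanIN, log2(TPM + 1) gave Fadd -0.08, Casp8 -0.23 and Casp6 -0.27, log2(TPM + 0.1) gave -0.11, -0.25 and -0.27, counts rebuilt from TPM gave Apaf1 0.31 and Casp9 0.14, and the term for Ccr7 and Fscn1 gave Casp9 0.12. With 1 library left out, in PanIN against Healthy, Fadd ran from -0.37 to 0.11, Cycs from -0.44 to 0.04, Casp9 from -0.30 to 0.35 and Casp6 from -0.19 to 0.79. In Tumor against Healthy, Fadd ran from -0.15 to 0.36, Ripk1 from -0.06 to 0.47, Apaf1 from -0.16 to 0.55, Casp9 from -0.43 to 0.23 and Casp6 from -0.03 to 0.97. In Tumor against PanIN, Casp9 ran from -0.27 to 0.04 and Casp6 from -0.15 to 0.36. No paired analysis was possible because the labels carry no replicate numbers and the stages share only 1 title code, with 1 library each, for which the term above stands.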
